A study of Mus musculus with 12 samples.

Results

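The genes of mouse chromosome 15 were followed across NIH3T3 fibroblasts and 3 Aebp1 knockout clones of that line, of which clone H7 carried more RNA from this chromosome than any other line. The count table lists 48795 genes, 1261 of them on chromosome 15 (build GRCm38). The 411 members are the chromosome 15 genes with a mean of at least 4 counts per 1000000 counts (CPM) over the 12 libraries. Of the other chromosome 15 genes, 835 lay below that minimum, and 15 were left out by name whatever their level: the Hoxc genes, Angpt1, Has2, Sqle, Atf4, Myc and Nr4a1. The members comprise 397 protein-coding genes, 4 processed pseudogenes and 10 other non-coding genes, and all 411 passed the filter on low counts. The chromosome was chosen by the measured level of its genes in H7, so every value from a contrast that holds H7 is given as a description: edgeR's calls there are counted without a p and support nothing. The contrasts of clones F5 and G5 did not choose the members and were tested.

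NIH3T3 is an immortalised line of mouse embryonic fibroblasts with an abnormal chromosome set. Ribosome-depleted total RNA was sequenced from the parental line at passages 6, 7 and 8 and from the Aebp1 knockout clones F5, G5 and H7 at passages 7, 8 and 9, which gave 3 libraries for each of 4 groups. All groups grew in DMEM/F12 with fetal bovine serum. The parental line is an uncloned population and each knockout line is 1 clone, so cloning and the knockout cannot be told apart in a comparison with the parental line, whereas H7, F5 and G5 share both. Nothing in the labels states whether each passage was a culture of its own, so the spread behind every p-value may be technical. Aebp1, which encodes a secreted collagen-binding protein, stood at 553 ± 76.6 CPM in the parental line. Clone F5 had 193 ± 19.9 CPM of it, clone G5 128.3 ± 8.46 and clone H7 147 ± 14.4 (SD, n = 3 each), and no clone overlapped the parental line. The libraries held 22088714 to 31329755 counts. The 8 fibroblast markers summed to between 22360 and 27670 CPM per library, whereas the epithelial markers summed to at most 1.96 CPM, the endothelial markers to at most 0.823 and the leukocyte markers to at most 5.36, with Epcam, Kdr and Cd3e at 0 counts. Within each line the library of the middle passage stood apart from the other 2 for several members, as given beside them.

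A gene's messenger RNA usually follows the number of DNA copies it is transcribed from, so an additional copy of a chromosome raises many unrelated genes along its length by a similar, modest factor. Feedback, imprinting and cell state move single genes away from that factor. Cultured fibroblast lines drift in chromosome number, and a clone fixes the chromosome set of the cell it grew from. No DNA was measured in the files used here, so whether H7 holds another number of copies of chromosome 15 was not tested. In bulk RNA, a change in all cells and a change in a share of the cells cannot be told apart.

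The promoters of the members were compared with those of all genes. RefSeq (GRCm38.p6) gave a promoter for 233 of the 411 members, and the 150 bases before the start were read. Of these 233 windows, 80.3% were followed by 40 bases that occur in an annotated GENCODE transcript of the gene, not necessarily at its first base. The letters GGGCGG, the core of the GC box, or CCGCCC on the other strand, lay in 63.5% of the members' windows and in 28.6% of all 32851 promoters. CCAAT or ATTGG lay in 31.3% of the members' windows against 24.5% of all, and TATAAA or TTTATA in 2.58% against 7.57%. The members have at least 4 CPM, whereas the 32851 promoters were taken whatever the level of their genes. These shares were therefore not compared at like levels, and whether the members differ from other expressed genes was not tested. The motifs were searched on both strands, and none contains another. The following windows are those of a translation factor and a mitochondrial protein that were higher in H7 and of a pair of members that were lower, written 5′ to 3′ on the gene's strand, with matches in capitals. Eif4b lies at chr15:102073623-102073772 on the plus strand, Txn2 at chr15:77928995-77929144, Slc38a4 at chr15:97055957-97056106 and Prickle1 at chr15:93595903-93596052, all on the minus strand. The 40 bases after the Prickle1 window were not found in the part of its annotated transcripts that was read.
Eif4b: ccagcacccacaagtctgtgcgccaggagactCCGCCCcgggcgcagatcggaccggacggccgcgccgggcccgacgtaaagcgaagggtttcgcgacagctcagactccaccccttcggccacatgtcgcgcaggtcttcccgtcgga
Txn2: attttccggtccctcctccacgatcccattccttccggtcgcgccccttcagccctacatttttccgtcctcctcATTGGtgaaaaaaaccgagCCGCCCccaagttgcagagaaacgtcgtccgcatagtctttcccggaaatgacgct
Slc38a4: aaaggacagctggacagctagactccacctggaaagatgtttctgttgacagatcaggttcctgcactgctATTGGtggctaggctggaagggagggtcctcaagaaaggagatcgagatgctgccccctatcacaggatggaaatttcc
Prickle1: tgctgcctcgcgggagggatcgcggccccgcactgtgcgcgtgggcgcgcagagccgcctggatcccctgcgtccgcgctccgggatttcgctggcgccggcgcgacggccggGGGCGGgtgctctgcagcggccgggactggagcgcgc
The Eif4b and Txn2 windows each hold 1 GC box and so does that of Prickle1, whereas the Slc38a4 window holds none. The Slc38a4 and Txn2 windows each have 1 CCAAT match. The median log2 fold change of H7 against the parental line was 0.44 over the 148 members with the box and 0.48 over the 85 without it. By the number of CG pairs in the window, it was 0.41 over the 78 members with the fewest, 0.48 over the 77 in between and 0.47 over the 78 with the most.

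Chromosome 15 took a larger share of the RNA in every H7 library than in any other library. The members took 4.54%, 4.32% and 4.56% of the counts of the parental libraries at passages 6, 7 and 8. They took 4.77%, 4.63% and 4.78% in F5 and 4.83%, 4.48% and 4.78% in G5 at passages 7, 8 and 9. In H7 they took 6.04%, 5.85% and 5.98%. The 9 libraries of the other lines lay within a narrow band and the H7 libraries lay above it. The share rests partly on a few abundant genes: the 10 members with the most counts held 32.1% of the members' counts, with Plec at 8.10% and Pabpc1 at 6.26%.

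A level that weights each member equally gave the same order. For each library the median over the members of log2 CPM, relative to each gene's mean over the 12 libraries, was taken, and the same median over 10075 genes of the other autosomes was subtracted. This chromosome 15 level was −0.16, −0.16 and −0.11 in the parental libraries, −0.07, −0.08 and −0.07 in F5, −0.08, −0.10 and −0.11 in G5 and 0.33, 0.32 and 0.31 in H7. The H7 libraries stood 0.47 above the parental mean. F5 stood 0.07 above it and G5 0.05, and every F5 and G5 library lay above every parental library. The exact two-sided permutation test gave p = 0.1 for F5 and for G5, the smallest p that 3 against 3 libraries allow, so neither difference can pass a threshold of 0.05.

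**Figure D1:**
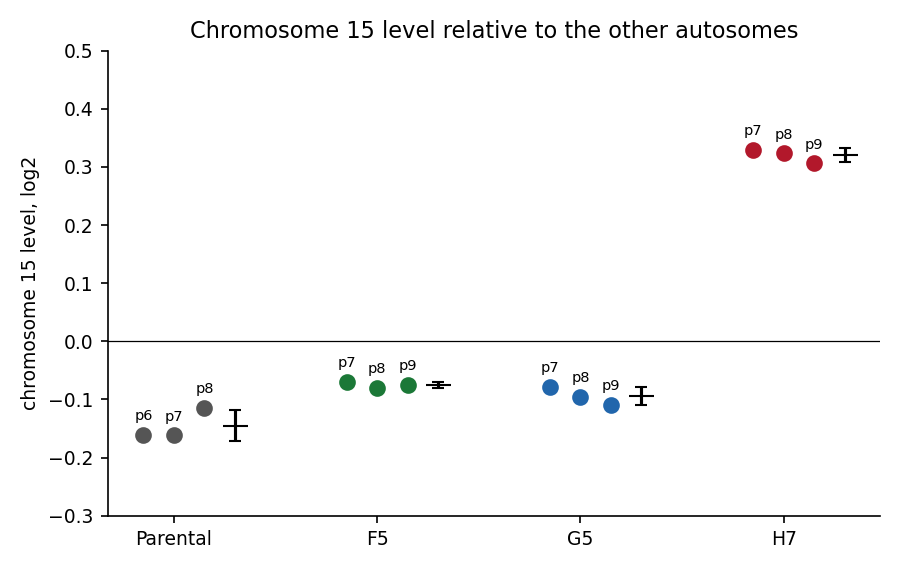
Chromosome 15 level of each library (log2, members minus the other autosomes) in the 4 lines. Circles are libraries labelled with their passage, and the bar beside each group is the mean with the SD of 3 libraries. The H7 libraries sit at 0.31 to 0.33 and the other 9 between −0.16 and −0.07.

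The shift in H7 ran through nearly all members rather than a subset. The median log2 fold change of H7 against the parental line was 0.47, or 1.38-fold, with quartiles of 0.29 and 0.61, and 383 members lay above 0 and 28 below. Over the other autosomes the median was −0.01. The members' interquartile range was 0.33 and that of the other autosomal genes 0.34, so the members lay around a higher centre with a like spread. All 3 H7 libraries exceeded all 3 parental libraries for 310 members and lay below them for 7 (16.7% and 17.3% of all genes tested). With edgeR's adjusted p under 0.05, 265 members were higher and 5 lower, beside 9.64% and 9.92% of the 14704 genes tested. The genes tested include those below the members' minimum of 4 CPM. These H7 counts describe the contrast that singled out the chromosome.

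Set against the other clones, in which cloning and the knockout are shared, H7 was higher by a median of 0.40, or 1.32-fold, with quartiles of 0.28 and 0.51. Of the members, 381 lay above 0. By the same call 277 were higher and 3 lower (11.6% of all genes in each direction). The 3 lower members were Retreg1, Fzd6 and Mief1. The interquartile range of the members was 0.23 in this contrast and that of the other autosomal genes, pooled over chromosomes, 0.30. Within single chromosomes this range ran from 0.20 on chromosome 9 to 0.63 on chromosome 10, and chromosomes 12 and 16 also had 0.23. The spread of the members thus lay within that of single chromosomes. All 3 H7 libraries exceeded all 9 other libraries for 263 members, or 64.0% (7.45% of all genes), and lay below them for 2, Fzd6 and Pced1b (7.88% of all genes).

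Chromosome 15 had the highest median of any chromosome in H7, at 0.47. It was followed by chromosome 18 at 0.28 and chromosome 16 at 0.24, and then chromosome 3 at 0.07. Chromosome 6 stood at −0.20 and chromosome 10 at −0.18 at the lower end. With chromosomes 6 and 10 also taken out of the reference, the level of chromosome 15 in H7 was 0.45 above the parental line. The raised chromosomes 18 and 16 stayed in that reference, so it was trimmed at the lower end only. In F5 chromosome 15 was the third highest at 0.07, behind chromosome 6 at 0.09 and chromosome 17 at 0.07, and in G5 it was the fourth at 0.05.

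**Figure D2:**
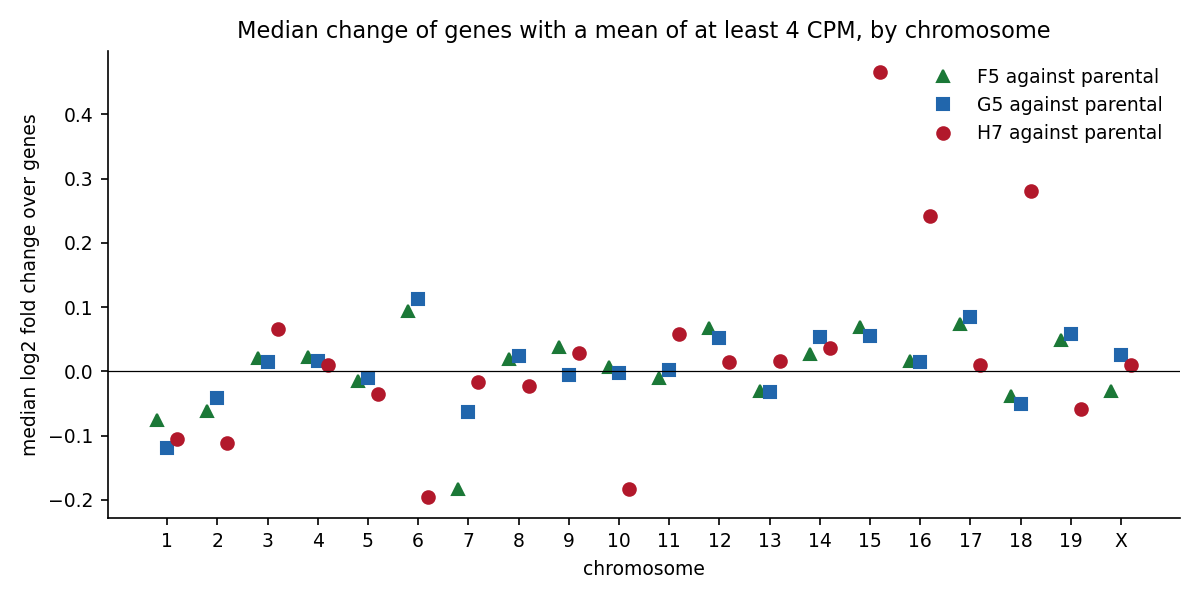
Median log2 fold change against the parental line over genes with a mean of at least 4 CPM, for chromosomes 1 to 19 and X. Triangles are F5, squares G5 and circles H7. Chromosome 15 is the highest point at 0.47 in H7, whereas the F5 and G5 points of chromosome 15 are at 0.07 and 0.05.

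Along the chromosome the shift in H7 reached from the first members to the last. In windows of 10 Mb by gene start, the H7 median lay between 0.43 and 0.71 in 10 of the 11 windows. The window from 20 to 30 Mb, which holds 8 members from Basp1 to Trio, was lower at 0.27. The window from 40 to 50 Mb, with 7 members from Zfpm2 to Ebag9, was higher at 0.71, and both hold few members. The 99 members between 70 and 80 Mb had a median of 0.43 and the 80 between 80 and 90 Mb one of 0.47. In consecutive runs of 20 members in gene order, the H7 median was above 0 in all 21 runs. It ranged from 0.35 in the run from Ppp6r2 to Prickle1 to 0.62 in the run from Lrp12 to Mtbp. Against F5 and G5 the runs lay between 0.30 and 0.51.

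In F5 and G5 the window medians were lower than in H7 throughout. From 40 to 50 Mb they were highest, at 0.31 in F5 and 0.36 in G5. There 3 and 5 of the 7 members were called higher, beside 6.88% and 6.54% of all genes. Against the mean of F5 and G5, this window stood at 0.42 in H7, near the median of 0.40 over all members.

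At the ends of the chromosome, the first 2 members in gene order are Selenop, a selenium transport protein, and Ghr, the growth hormone receptor, with log2 changes of 0.91 (SE 0.46) and 0.17 (SE 0.35) in H7, the latter −0.05 without the parental library of passage 6. The last 2 are the zinc-finger gene Zfp385a at 0.55 (SE 0.13) and the fibronectin receptor subunit Itga5 at 0.36 (SE 0.17). Each SE is that of the fit over 3 against 3 libraries.

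**Figure D3:**
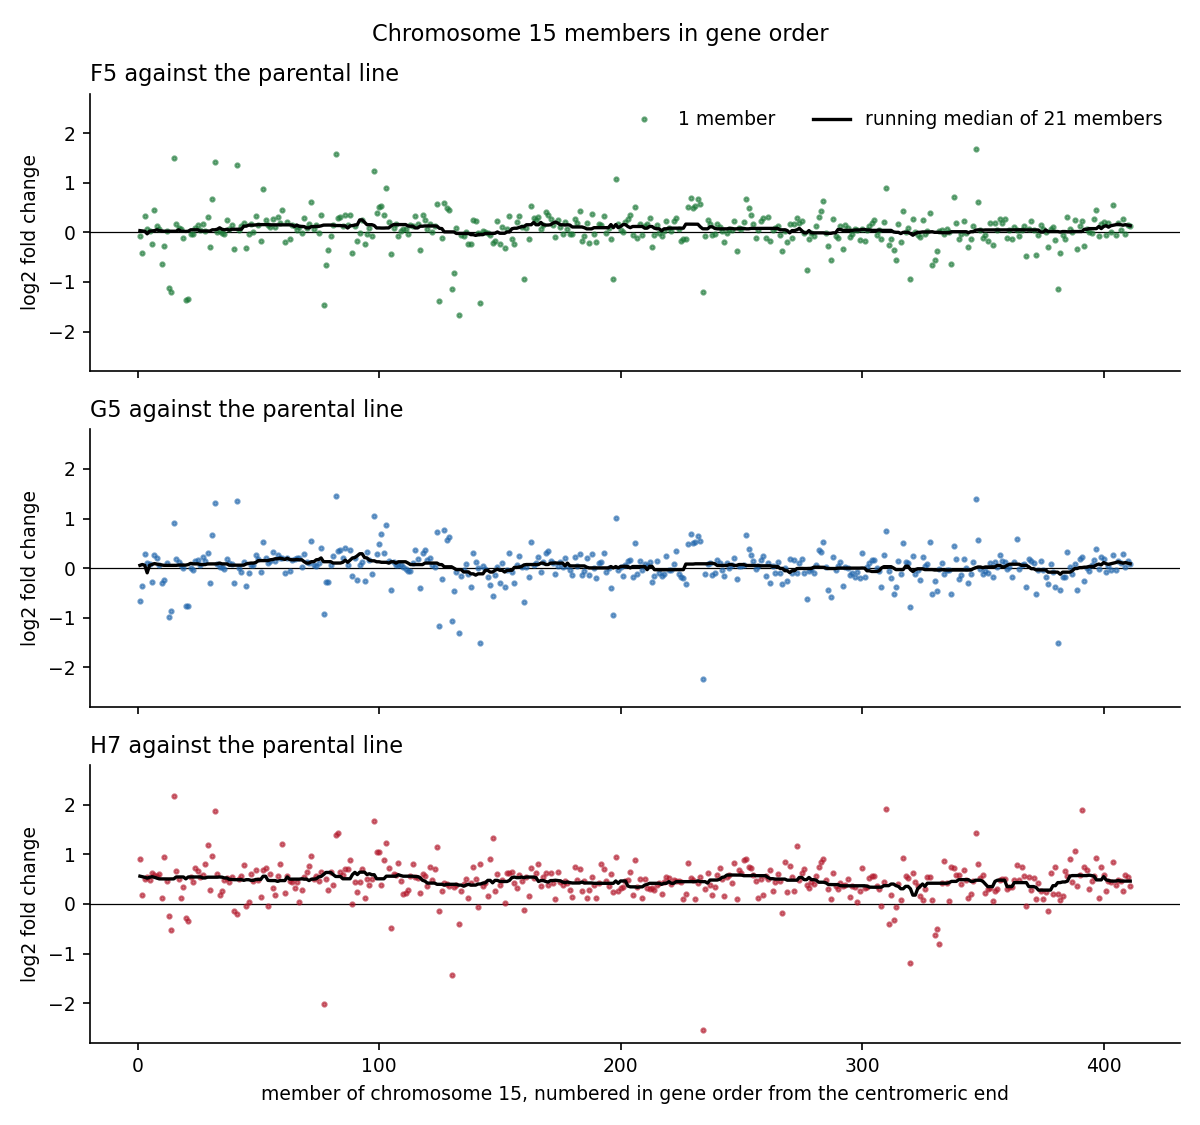
log2 fold change of each of the 411 members against the parental line, in gene order from the centromeric end, in F5, G5 and H7. Each point is 1 member and the line is the running median of 21 members. The line runs lower in F5 and G5 than in H7, with single members far above and below it. Medians over runs of 20 members went from −0.02 to 0.17 in F5, −0.07 to 0.23 in G5 and 0.35 to 0.62 in H7.

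The shift was alike over levels, strands and gene lengths. Over the 137 members with the lowest mean CPM (4.23 to 24.63) the H7 median was 0.43, over the next 137 it was 0.48 and over the 137 with the highest 0.47. It was 0.48 on the plus strand and 0.45 on the minus strand. Split likewise by gene span, the shortest, middle and longest members stood at 0.48, 0.48 and 0.42. Just inside the minimum, Cela1 (4.23 CPM) and the chromobox gene Cbx7 (4.97 CPM) stood at 0.21 and 0.82. Just outside it, the keratin gene Krt80 (3.89 CPM) and Tmem117 (3.57 CPM) stood at 0.52 and 0.05. The 57 chromosome 15 genes between 1 and 4 CPM had a lower median of 0.17, with wider quartiles of −0.42 and 0.52.

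Pseudogenes and other non-coding members had lower medians than the protein-coding genes. The 397 protein-coding members had an H7 median of 0.47, the 4 processed pseudogenes −0.02 and the 10 other non-coding members 0.25. Reads of a processed pseudogene can come from its parent gene elsewhere in the genome, so these values are uncertain. Rpl31-ps8, a copy of a ribosomal protein gene, stood at −0.40 in H7, whereas Ndufb4c stood at 0.51 and was called higher, as was 1 of the 10 other non-coding members. The sources used here do not give whether the counting used strand, so overlapping and antisense members carry a like uncertainty.

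The classes of genes that build and run the ribosome stood at or above the chromosome's median against the parental line. Against the mean of F5 and G5 they stood below the 0.40 of all members, at 0.23 for ribosomal proteins, 0.35 for translation factors and 0.39 for ribosome assembly. The 4 cytosolic ribosomal protein genes, Rpl3, Rpl8, Rpl30 and Rpl37, had an H7 median of 0.56, with 3 called higher. Against the mean of F5 and G5, Rpl3 stood at −0.18 in H7, whereas Rpl8, Rpl30 and Rpl37 stood at 0.23, 0.28 and 0.23. Rpl8 was at 840, 638 and 769 CPM in the parental libraries, 958, 957 and 969 in F5, 954, 918 and 851 in G5 and 1112, 1095 and 1076 in H7. Each H7 library lay above all others and the F5 and G5 libraries lay above the parental ones. In F5 all 4 genes rose, by 0.36 for Rpl8 (SE 0.09, adjusted p = 0.0227), 0.32 for Rpl30 (SE 0.09, adjusted p = 0.0412), 0.44 for Rpl37 (SE 0.09, adjusted p = 0.00612) and 0.70 for Rpl3 (SE 0.17, adjusted p = 0.0179). In G5 only Rpl3 passed the test (0.69, SE 0.17, adjusted p = 0.02). Over all genes, 6.88% were called higher in F5 and 6.54% in G5.

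The 11 translation factors and mRNA-binding regulators had an H7 median of 0.54, with 10 called higher and the mRNA-silencing factor Tnrc6b at 0.31. Pabpc1, which binds the poly(A) tail and aids initiation, was at 2826, 2312 and 2482 CPM in the parental libraries, 3133, 3096 and 3079 in F5, 3098, 3072 and 3060 in G5 and 3837, 3605 and 3675 in H7. The lines formed 3 steps that did not overlap, with F5 and G5 together in the middle. Eif4b, a helper of the cap-binding helicase whose window is printed above, was at 799, 832 and 740 CPM in the parental libraries, 975, 1010 and 944 in F5, 1008, 1006 and 948 in G5 and 1149, 1239 and 1137 in H7. It made the same 3 steps. In F5 and in G5, 5 of the 11 rose in each, beside 6.88% and 6.54% of all genes. Among them Tars, the threonyl-tRNA synthetase, rose by 0.67 in both (SE 0.17, adjusted p = 0.0243 and 0.0255). Ago2, the small-RNA-guided slicer, stood at 0.40 in H7 and at −0.06 in F5 and −0.03 in G5 (adjusted p = 0.556 and 0.813).

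Of the 22 members for ribosome assembly and RNA processing, 16 were higher in H7 and none lower, with a median of 0.49. Pcbp2, a poly(C)-binding protein, stood at 0.58 (SE 0.06). Hnrnpa1, a splicing regulator, stood at 0.26 (SE 0.09) and was unlike most members: its H7 libraries, at 852, 826 and 880 CPM, lay among those of F5 (869, 839 and 875) and G5 (901, 813 and 891), above the parental 782, 611 and 741. Ddx17, an RNA helicase, stood at 0.20 (SE 0.15).

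Genes for mitochondrial proteins had the highest H7 median of the 12 classes, 0.58 over 18 members, with 16 called higher. It was the highest in 17 of the 21 settings run, and that of the ribosomal proteins in the other 4. Txn2, the mitochondrial thioredoxin, was at 78.8, 69.0 and 80.5 CPM in the parental libraries, 86.1, 85.2 and 83.3 in F5, 85.7, 81.1 and 80.4 in G5 and 141, 128 and 129 in H7. The H7 libraries lay well above all others. The F5 libraries lay just above the parental ones (0.16, adjusted p = 0.171) and those of G5 overlapped them. Mrpl13, a protein of the mitochondrial ribosome, was at 39.6, 32.6 and 41.2 CPM in the parental libraries, 51.9, 48.2 and 48.2 in F5, 48.3, 43.2 and 47.1 in G5 and 78.5, 77.6 and 77.6 in H7. It more than doubled in H7 (1.04, SE 0.09) and rose by 0.39 in F5 (SE 0.09, adjusted p = 0.0133) and by 0.29 in G5 (SE 0.09, adjusted p = 0.0489). The ketone body enzyme Oxct1 stood at 0.47 (SE 0.18) in H7.

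Of the 20 members for the cell cycle, cohesin and DNA repair, 15 were higher in H7, with a median of 0.52. Rad21, the cohesin kleisin, stood at 0.44 (SE 0.11), its loader Nipbl at 0.33 (SE 0.07) and the bromodomain ATPase Atad2 at 0.61 (SE 0.18). The 17 members of the ubiquitin system and protein folding had a median of 0.53, with 15 called higher. Among them, the chaperonin subunit Cct5 stood at 0.69 (SE 0.12) and the Hsp70 cofactor St13 at 0.58 (SE 0.07). The 18 members of vesicle traffic, Golgi and lysosome had a median of 0.50 with 12 called higher. The small GTPase Arf3 stood at 0.53 (SE 0.08), the lipid transfer protein Vps13b at 0.56 (SE 0.15) and the membrane protein Tmbim6 at 0.35 (SE 0.07).

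Regulators, cytoskeletal genes and receptors stood lower within the chromosome. The 33 transcription factors and chromatin proteins had an H7 median of 0.38 and 19 were called higher. Their abundant members were close to that value or below it: the histone methyltransferase Kmt2d at 0.22 (SE 0.07), Tcf20 at 0.27 (SE 0.06) and the heterochromatin protein Cbx5 at 0.46 (SE 0.17). The 20 cytoskeletal and focal adhesion genes had a median of 0.35, with 10 called higher. Plec, the linker protein plectin, was at 3921, 2809 and 3961 CPM in the parental libraries, 4271, 3067 and 3987 in F5, 4195, 3122 and 3556 in G5 and 5770, 4680 and 5116 in H7. The H7 libraries exceeded all others, and in each line the middle passage was the lowest. Non-muscle myosin Myh9 stood at 0.42 (SE 0.11) and the tubulin Tuba1b at 0.32 (SE 0.16).

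The 23 receptors, kinases and signalling genes had the lowest H7 median, 0.25, with 12 called higher and 2 lower. They also had the lowest medians in the other clones, −0.06 in F5 and −0.10 in G5, and against the mean of F5 and G5 they stood at 0.43, beside 0.40 for all members. The semaphorin receptor Plxnb2 stood at 0.25 (SE 0.07) in H7. Osmr, the oncostatin M receptor, was highest at the middle passage of every line, at 390 CPM in parental cells, 159 in those of F5, 174 in those of G5 and 255 in those of H7. The other passages held at most 199, 104, 120 and 216 CPM, and H7 overlapped the parental line (−0.24, SE 0.38, or 0.26 without the parental library of passage 7).

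The remaining classes spread widely. Of the 14 matrix, secreted and adhesion genes that reached the minimum (15 of the listed genes did not), 6 were called higher, with a median of 0.51. Lgals1, a secreted galectin, stood at 0.47 (SE 0.08). Igfbp6, which binds insulin-like growth factors, was at 135, 137 and 187 CPM in the parental libraries, 173, 186 and 185 in F5, 158, 171 and 157 in G5 and 342, 303 and 320 in H7. Its H7 libraries stood well above the others (1.07, SE 0.11). The 21 transporters and metabolic enzymes had a median of 0.44, with 14 called higher and 1 lower. The reductase Cyb5r3 stood at 0.85 (SE 0.09), the pyrophosphate exporter Ank at 0.56 (SE 0.33) and the amino acid transporter Slc38a2 at 0.09 (SE 0.23), which was −0.14 without the parental library of passage 6. The 190 members in no class had a median of 0.45, with 117 called higher and 2 lower.

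**Figure D4:**
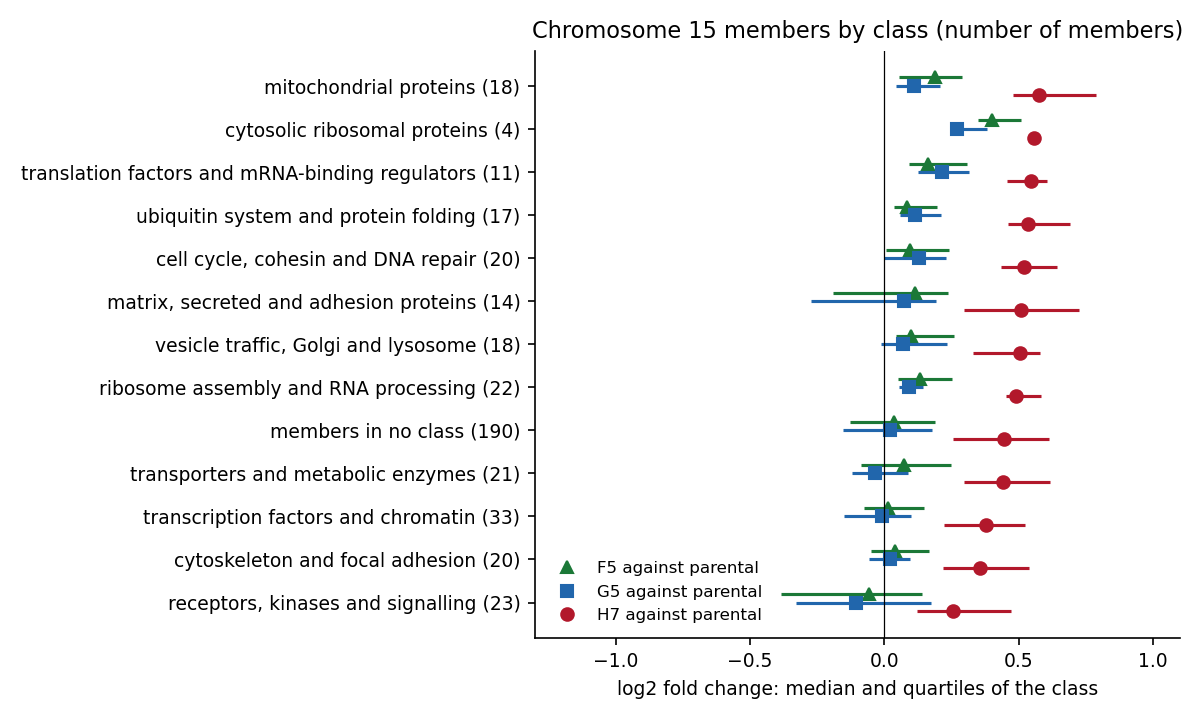
Median (symbol) and quartiles (line) of the log2 fold change against the parental line for members of 12 classes and for members in no class, with the number of members in brackets. The H7 medians run from 0.25 in receptors, kinases and signalling to 0.58 in mitochondrial proteins, and each lies above the F5 and G5 medians of its class.

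The same gene families had lower medians in H7 where they lie on other chromosomes. The respiratory chain and ATP synthase subunits on chromosome 15, Cox6c, Ndufb9, Cyc1, Ndufa6 and Atp5g2, had an H7 median of 0.80 with all 5 called higher. The 64 subunits encoded on other chromosomes had a median of 0.11. The 5 translation initiation factor genes on chromosome 15 stood at 0.57 and the 46 elsewhere at 0.12. The 4 ribosomal protein genes stood at 0.56 and the 73 elsewhere at 0.10. The 9 Zfp genes stood at 0.49 and the 271 elsewhere at −0.10, and the 12 solute carrier genes at 0.38 and the 140 elsewhere at 0.02. The 3 tubulin genes, Tuba1a, Tuba1b and Tuba1c, had a median of 0.25, with none called by edgeR, and the 8 elsewhere one of −0.07. In F5 the ribosomal protein genes were higher on chromosome 15 (0.40) and elsewhere (0.27), and against F5 and G5 those on chromosome 15 stood at 0.23 in H7 and those elsewhere at −0.10.

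Per length, the most abundant members were Lgals1, which went from a mean of 2676 TPM (transcripts per 1000000, which accounts for gene length) in the parental line to 3696 in H7, Pabpc1 from 1645 to 2398, Rpl8 from 1560 to 2282 and Tuba1b from 936.5 to 1175. These are mean levels over 3 libraries on the deposited TPM scale.

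A few members rose far above the chromosome's shift. Among members with a mean of at least 10 CPM the highest log2 changes in H7 were those of Cpne8 at 1.92 (SE 0.15), Npr3 at 1.88 (SE 0.50), Deptor at 1.67 (SE 0.18), Oxr1 at 1.43 (SE 0.09), Zfpm2 at 1.40 (SE 0.23) and Tbc1d31 at 1.22 (SE 0.13). Over all members, 17 exceeded a doubling in H7. Cpne8, a copine that binds membranes with calcium, lies at 90487482 to 90679432 on chromosome 15. It was at 10.6, 15.7 and 10.3 CPM in the parental libraries, 22.2, 25.6 and 20.1 in F5, 20.6, 20.4 and 20.7 in G5 and 44.5, 45.3 and 49.4 in H7. It made 3 steps, and it also rose in F5 (0.89, SE 0.15, adjusted p = 0.00269) and G5 (0.75, SE 0.15, adjusted p = 0.00725). Oxr1, an oxidation resistance gene, was at 27.8, 29.3 and 28.8 CPM in the parental libraries, 32.6, 37.1 and 35.0 in F5, 32.6, 39.6 and 36.7 in G5 and 83.9, 73.7 and 73.9 in H7, and stood 1.12 above the mean of F5 and G5 in H7.

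Of the other members high in H7, Zfpm2 was as high in the other clones, whereas Deptor and Npr3 stood higher in H7. Zfpm2, a partner of GATA factors, was at 16.3, 7.14 and 9.89 CPM in the parental libraries, 34.7, 34.2 and 30.5 in F5, 32.5, 31.8 and 26.9 in G5 and 30.1, 32.0 and 25.6 in H7. The 3 clones overlapped each other and lay above the parental line (−0.12 for H7 against the mean of F5 and G5). Deptor, an inhibitor of mTOR, was at 9.21, 12.1 and 9.14 CPM in the parental libraries, 20.7, 30.1 and 21.5 in F5, 17.6, 24.7 and 21.4 in G5 and 34.9, 31.9 and 30.3 in H7. The H7 libraries lay above every other library, 0.52 above the mean of F5 and G5. Npr3, the natriuretic peptide clearance receptor, was at 40.3, 9.28 and 14.2 CPM in the parental libraries, 80.9, 46.4 and 43.4 in F5, 73.4, 41.2 and 42.8 in G5 and 112, 67.5 and 54.8 in H7. It stood 0.51 above the mean of F5 and G5 in H7, whose libraries overlapped theirs. In every line its first passage was the highest, and neither F5 (adjusted p = 0.0809) nor G5 (adjusted p = 0.11) passed the test.

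The members below the parental level in H7 were few, 28 of 411. The 5 called lower in H7 were Cacna1i, Fzd6, Prickle1, Slc38a4 and Lifr. Fzd6, a Wnt receptor at 39006034 to 39038188, was at 13.5, 12.9 and 13.1 CPM in the parental libraries, 4.98, 5.21 and 4.05 in F5, 6.51, 8.21 and 6.06 in G5 and 2.39, 3.68 and 3.58 in H7. All clones lay below the parental line and H7 lay lowest (−2.03 in H7). Cacna1i, a T-type calcium channel, was at 14.3, 6.91 and 18.9 CPM in the parental libraries, 7.78, 3.67 and 6.06 in F5, 4.45, 1.41 and 2.59 in G5 and 2.63, 1.11 and 3.15 in H7, with the middle passage the lowest in every line.

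Slc38a4, an amino acid transporter whose gene is imprinted, was at 113, 129 and 113 CPM in the parental libraries, 82.0, 78.0 and 82.9 in F5, 101, 86.9 and 108 in G5 and 75.2, 78.5 and 77.8 in H7. H7 overlapped F5, and both lay below the parental line and G5. The log2 changes were −0.62 (SE 0.08) in H7, −0.55 in F5 (SE 0.08, adjusted p = 0.00184) and −0.26 in G5 (SE 0.08, adjusted p = 0.0629). Lifr, the leukaemia inhibitory factor receptor, was at 65.5, 81.4 and 77.9 CPM in the parental libraries, 32.8, 33.2 and 31.9 in F5, 43.0, 39.7 and 40.9 in G5 and 48.2, 56.7 and 52.2 in H7. The 4 lines did not overlap, and H7 lay between the parental line and the other clones (−0.52 in H7). Prickle1, a planar cell polarity gene, was at 12.6, 26.6 and 13.8 CPM in the parental libraries and 7.44, 8.91 and 6.77 in H7 (−1.20, SE 0.31). Its call was lost without the parental library of passage 7 (−0.77), without the H7 library of passage 7 (−1.17) and without that of passage 9 (−1.11). Of the others named as lowest, Fam135b (−1.44, SE 0.66) and the adhesion gene Amigo2 (−0.51, SE 0.39) had wide errors and were not called. The transcriptional repressor Zhx1 (−0.48, SE 0.18) was not called either. It stood at −0.45 in F5 and −0.44 in G5 (adjusted p = 0.126 and 0.1365). The parental library of passage 7 held 69.1 CPM of Fam135b, against 14.9 and 17.0 in the other parental libraries.

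**Figure D5:**
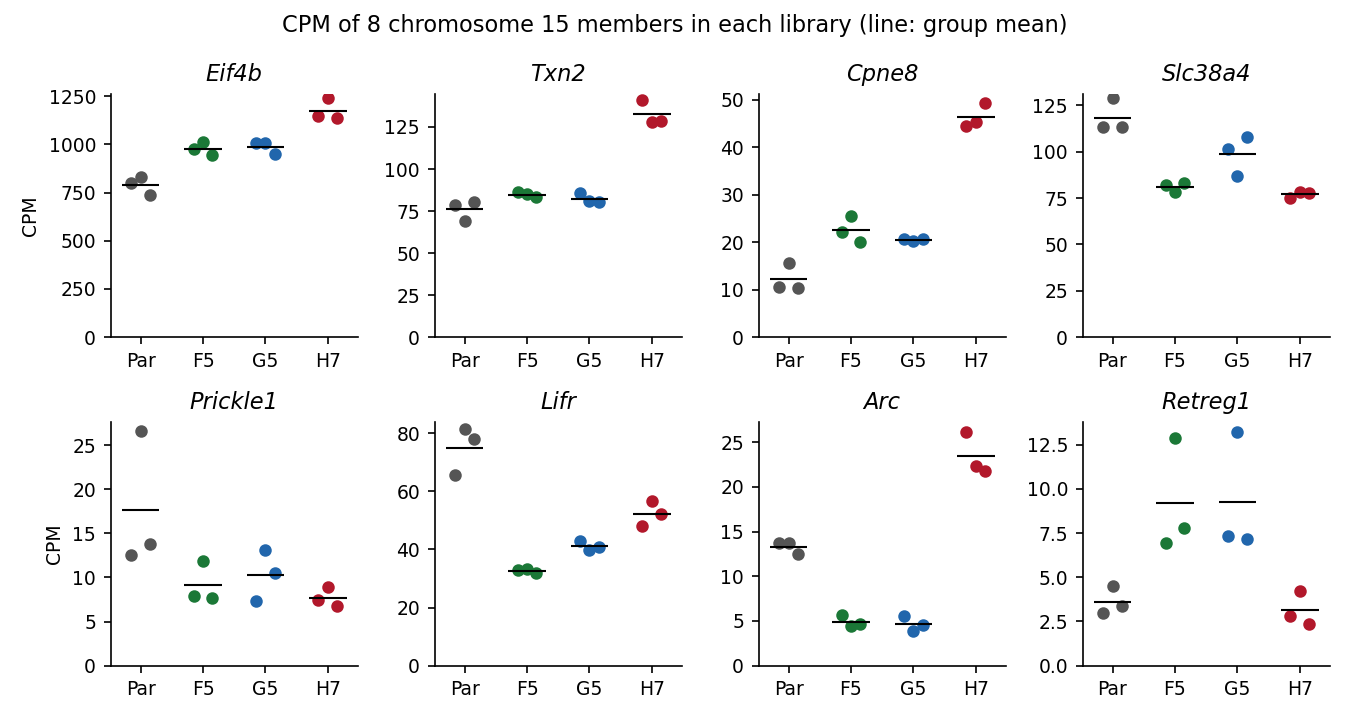
CPM of 8 members in each library, with a line at the mean of 3 libraries and an axis from 0 in each panel. Eif4b and Cpne8 step up through F5 and G5 to H7, Txn2 is highest in H7, Slc38a4, Prickle1 and Lifr are below the parental mean in every clone, Arc is low in F5 and G5 and high in H7, and Retreg1 is high in F5 and G5.

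In F5 and G5 the members moved little as a whole. The median log2 fold change against the parental line was 0.07 in F5, with 257 of 411 members above 0, and 0.05 in G5, with 244 above 0, beside −0.0011 and 0.00044 over the other autosomes. Both contrasts use the same parental libraries as that of H7. In F5 46 members rose and 14 fell, or 11.2% and 3.41% of the members, beside 6.88% and 7.37% of all genes. In G5 34 rose and 15 fell, or 8.27% and 3.65%, beside 6.54% and 6.56%. All genes here are the 14704 tested, with those below 4 CPM included, whereas every member reached that minimum. All 3 F5 libraries exceeded the parental ones for 94 members (15.0% of all genes) and lay below for 30 (15.1%). In G5 these counts were 73 (13.9% of all genes) and 34 (14.2%). Without the F5 library of passage 7, 8 or 9, the 60 calls in F5 became 34, 35 or 38, and without the G5 library of passage 7 or 8 the 49 calls in G5 became 30 in each case. With the order of passages as a replicate block, chosen after seeing the data, 94 rose and 45 fell in F5 (13.8% and 15% of all genes) and 83 and 46 in G5 (13.1% and 13.8%), so the calls over all genes grew alike. With limma on log2 of the deposited TPM, the split in G5 was 46 higher and 9 lower, a larger share of higher calls than with edgeR. The shares over all genes were not taken with limma or with a library left out. Whether those counts differ from the shares over all genes was therefore not tested.

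The members that rose with the smallest adjusted p in F5 were Mief1, Deptor, Fkbp11 and Zfpm2. Mief1, a mitochondrial fission factor, was at 60.3, 50.7 and 60.9 CPM in the parental libraries, 96.3, 87.1 and 89.9 in F5, 96.2, 87.6 and 85.2 in G5 and 80.8, 75.5 and 72.8 in H7. It rose by 0.67 in F5 (SE 0.09, adjusted p = 0.000693) and by 0.65 in G5 (SE 0.09, adjusted p = 0.00078), and the H7 libraries lay between the parental line and the other clones. In F5, Deptor rose by 1.25 (SE 0.17, adjusted p = 0.00115), Zfpm2 by 1.58 (SE 0.23, adjusted p = 0.00141) and Fkbp11, a secretory pathway prolyl isomerase, by 0.61 (SE 0.09, adjusted p = 0.00135). In G5 the others were the amino acid transporter Slc38a1, up by 0.52 (SE 0.07, adjusted p = 0.00122), the repressor Zhx2, up by 0.69 (SE 0.10, adjusted p = 0.00162), and Tbc1d31, a protein of centriolar satellites, up by 0.87 (SE 0.13, adjusted p = 0.00178). The members named here were each called higher in both clones.

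Among those that fell, Arc, an activity-regulated cytoskeletal gene at 74669083 to 74672570, was at 13.8, 13.7 and 12.5 CPM in the parental libraries, 5.63, 4.46 and 4.71 in F5, 5.55, 3.90 and 4.50 in G5 and 26.2, 22.4 and 21.8 in H7. F5 and G5 fell by 1.43 (SE 0.14, adjusted p = 0.00015) and 1.51 (SE 0.14, adjusted p = 9.46e-05), whereas the H7 libraries stood above all others. Lifr fell by 1.20 in F5 (SE 0.09, adjusted p = 3.02e-05) and by 0.86 in G5 (SE 0.09, adjusted p = 0.000169). Peg13, an imprinted non-coding gene within an intron of Trappc9, was at 20.8, 28.6 and 21.04 CPM in the parental libraries, 5.94, 8.91 and 7.33 in F5, 7.99, 10.9 and 9.64 in G5 and 17.3, 18.1 and 17.7 in H7. It fell by 1.67 in F5 (SE 0.17, adjusted p = 0.000209) and by 1.31 in G5 (SE 0.17, adjusted p = 0.000739), and H7 lay between those clones and the parental line. Its host gene Trappc9 stood at 0.08 in F5 and −0.07 in G5 (adjusted p = 0.699 and 0.733) and at 0.38 in H7. Fzd6 fell by 1.47 in F5 (SE 0.17, adjusted p = 0.000445) and by 0.93 in G5 (SE 0.17, adjusted p = 0.005). St3gal1, a sialyltransferase, fell by 1.385 in F5 (SE 0.17, adjusted p = 0.000648) and by 1.17 in G5 (SE 0.17, adjusted p = 0.00161). Its H7 libraries were at 82.3, 108 and 93.2 CPM, within the parental range of 76.3 to 123.

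F5 and G5 did not differ detectably on chromosome 15. Their members' median difference was 0.02, and edgeR and DESeq2 each called 0 members (0.258% of all genes by edgeR). At an unadjusted p under 0.05 edgeR had 12 members, beside 4.99% of all genes. The quartiles of the difference over members were −0.04 and 0.08. A slope with the order of passages within lines had a median of −0.003 per passage, and edgeR called 0 members (0.0204% of all genes), whereas DESeq2 called 2. Without adjustment, 34 members had a p under 0.05 by edgeR, beside 7.09% of all genes.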

How the data were processed

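The authors deposited estimated counts (48795 Ensembl genes) and a TPM table, whose deposited TPM columns each sum to 1000000. The build is GRCm38, per the submitters' processing notes. Aligner, counting tool and annotation: not given in the sources used here. Symbols and coordinates (1-based) are from GENCODE M21, which named 48435 genes. Counts were rounded (86.9% of values over 0.5 were whole to within 0.01). Members were chosen on CPM as count over column sum, and printed CPM use TMM factors. edgeR 4.0.16 (R 4.3.3) kept 14704 genes by filterByExpr and ran quasi-likelihood F-tests with group as the only term over 12 libraries (8 residual degrees of freedom, biological coefficient of variation 15.5%). P-values were adjusted by Benjamini-Hochberg over all genes kept, and genes under 0.05 are called. SEs come from the F statistic. DESeq2 1.42.0 and limma 3.58.1 were alternatives. The script was tested on simulated data.

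The members, gene classes and families were chosen with earlier results of these data known. Named genes are the 3 members of highest mean CPM in each class, the 6 highest and 6 lowest in H7 from 10 CPM up, the 4 higher and 4 lower of smallest adjusted p in F5 and in G5, the first and last 2 in gene order and those beside the minimum. Some genes this rule takes are not reported here. Other genes were picked after their values were seen. Precision is limited by 3 libraries a group.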

Additional observations from a re-analysis of the deposited data

Results flagged for a closer look

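For 14 members the change from the parental line had opposite signs in H7 and in both F5 and G5, with the change in F5 or G5 called and the difference between H7 and the mean of F5 and G5 called as well. That is 3.41% of the members, beside 3.72% of the 14704 genes tested, so the share is near the background. The change in H7 itself was called for 7 of the 14, and for the other 7 (Retreg1, Tob2, Apobec3, Ptger4, Cerk, Cthrc1 and Fignl2) its sign is uncertain. H7 libraries helped to choose the chromosome, so these differences are a description. In log2 of H7 minus that mean, Arc differed by 2.29, Fignl2 by 1.53, Ly6e by 1.1, Prr5 by 1.07, Cthrc1 by 0.97, Kctd17 by 0.87, Slc45a4 by 0.73, Gramd4 by 0.66, Cerk by 0.66, Zc3h3 by 0.64, Ptger4 by 0.59, Apobec3 by 0.44 and Tob2 by 0.40. In the opposite direction, Retreg1, a receptor for autophagy of the endoplasmic reticulum, stood at −1.56. It was at 2.95, 4.50 and 3.38 CPM in the parental libraries, 6.93, 12.9 and 7.79 in F5, 7.32, 13.2 and 7.17 in G5 and 2.83, 4.20 and 2.36 in H7, and the middle passage was the highest in each line. Cerk, a ceramide kinase, and its neighbour Gramd4 fell in F5 (−0.55 and −0.28) and G5 (−0.58 and −0.45) and stood at 0.10 and 0.30 in H7.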

How the results depend on the processing

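The H7 median lay between 0.44 and 0.49 under every alternative run (DESeq2, TMM factors without chromosome 15, RLE factors, no filter on low counts, limma on TPM, blocks, other CPM minimums, each library left out). With limma on log2(TPM + 0.1) the F5 median was 0.10. On log2(TPM + 1) and log2(TPM + 0.1) the G5 median was 0.12 and 0.12, that of F5 against G5 turned to −0.021 and −0.022, and that of H7 against F5 and G5 was 0.34 and 0.35. DESeq2 called 2 members in the passage trend.

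Leaving out each library in turn gave 215 to 280 calls in H7, 34 to 72 in F5, 30 to 55 in G5, 209 to 321 for H7 against F5 and G5, 0 to 0 for F5 against G5 and 0 to 1 for the trend. The medians ran from 0.44 to 0.49 in H7, 0.051 to 0.092 in F5, 0.027 to 0.074 in G5, 0.0060 to 0.037 for F5 against G5, 0.39 to 0.41 for H7 against both and −0.017 to 0.0039 for the trend. The chromosome 15 level stood 0.46 to 0.48 above the parental line in H7, 0.063 to 0.086 in F5 and 0.039 to 0.064 in G5. Where a group kept 2 libraries, the spread of all groups was used. The shares of calls over all genes were not taken for these fits.

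Passage numbers paired the libraries of the clones but not those of the parental line. Deviations of libraries with the same number correlated over 0.1 in 9 of 15 pairs, and 7 libraries correlated best with their own number. Those 9 pairs were all between clones, at 0.293 to 0.792. Every pair of a parental and a clone library with the same number correlated negatively, at −0.708 to −0.367. With the passage number as a replicate block, 214 members were higher and 6 lower in H7, 41 and 19 in F5, 35 and 19 in G5, 0 between F5 and G5 and 266 and 3 for H7 against both. The shares over all genes were not taken with this block, so these counts cannot be set beside them. Deviations of libraries at the same place in the order of passages correlated between 0.00874 and 0.792, over 0.1 in 16 of 18 pairs, and 11 libraries correlated best with their own place. A block for that order, added after the data were seen, gave 139 calls in F5, 129 in G5, 337 in H7 and 1 between F5 and G5. With it, the shares over all genes are given above for F5 and G5 and were not taken for H7.

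Of 240 values of the 12 class medians in H7, 46 moved by more than the spread and none turned sign. Over 82 results of single genes and 1640 values, 1561 kept direction and side of the threshold, 51 lost a call (11 genes in H7: Kmt2d, Plec, Plxnb2, Cbx7, Atad2, Myh9, Vps13b, Prickle1, Npr3, Rad21 and Nipbl), 21 gained one and 7 turned sign, none of them called. With the passage block, Ghr was −0.20 and Slc38a2 −0.15. With a library left out, Osmr ran from −0.496 to 0.26 and Amigo2 from −0.77 to 0.034, turning without parental passage 7. Ghr ran from −0.052 (without parental passage 6) to 0.59, and Slc38a2 from −0.14 (without parental passage 6) to 0.45, with −0.029 without H7 passage 8. The cause was not tested. A total of 3 libraries a group limits the precision.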
